A study of Mus musculus with 10 samples.

Results

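The expression of 36 endothelial and angiogenesis genes was examined in brown adipose tissue (BAT) of mice whose adipocytes lack STAT5. The genes were taken from a list of names, matched by symbol and joined by Entrez identifier to the deposited counts. All 36 were found among the 24454 genes counted, and all 36 were among the 13568 genes that passed the filter on low counts (a sum over the 10 libraries of counts divided by size factors above 45). RNA-Seq was performed on BAT of control and Stat5Adipoq mice (5 libraries per genotype), which were male, 2 months of age, on a C57BL/6N background and fed ad libitum. The sample titles call both groups basal. Stat5Adipoq mice carry floxed Stat5 alleles and an Adipoq-Cre transgene, and the methods describe the controls as Cre-negative littermates with floxed Stat5, although their labels read wild type. The Adipoq promoter directs Cre to adipocytes and not to endothelial cells.

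BAT is densely vascularised, and its capillaries deliver oxygen and fatty acids to adipocytes and carry away heat. Adipocytes release vascular endothelial growth factors (VEGFs), which act on receptor tyrosine kinases and neuropilin co-receptors of endothelial cells, while angiopoietins act on the receptor TIE2 to stabilise or loosen vessels. Notch signalling, ETS and SOX transcription factors and junction proteins such as VE-cadherin set the identity and the barrier of the endothelium.

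Values are counts divided by TMM-scaled library size and given per 1e6 counts (CPM). Genotypes were tested with edgeR (quasi-likelihood F test), with p-values adjusted over all tested genes by the Benjamini-Hochberg method and a threshold of 0.05. The libraries held 8488129 to 19514904 counts on genes. The deletion was visible in every library, as Stat5a read 86.9 to 130.4 CPM in controls and 15.8 to 20.7 CPM in Stat5Adipoq mice, and Stat5b 76.6 to 91.9 CPM and 21.0 to 22.9 CPM. Control 3 stood apart in a principal component analysis, and its 9 skeletal muscle markers summed to 4665 CPM against 2.56 to 389 CPM in the other libraries. It also held RNA of liver genes, with Alb at 38.7 CPM against 0.0923 to 1.6 CPM elsewhere. In whole tissue, fewer cells of a type and less RNA per cell cannot be told apart.

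All 36 genes were detected in all 10 libraries, from 23.7 counts per library on average for Angpt2 to 8429.8 for Vegfa, and 34 of the 36 averaged at least 100 counts. Levels between genes were compared as CPM per kb of exon. The exon lengths are those of GENCODE, which may differ from the annotation used for counting, so the order of genes with similar levels is uncertain. Vegfa, the main growth factor for capillaries, was the most abundant with 163 CPM per kb on average (140.3 to 187 over the 10 libraries), followed by Vegfb, a related ligand of FLT1, with 98.9 CPM per kb (89.0 to 108) and Cdh5, which encodes VE-cadherin, with 58.1 CPM per kb (50.7 to 66.1). The ranges of these neighbours did not overlap. From Cdh5 to Dll4 each gene overlapped the next one in the order, beginning with Nrp1 at 46.2, Eng at 36.8, Kdr at 29.5 and Cldn5 at 29.2 CPM per kb. A second gap separated Dll4 (4.46 CPM per kb) from Calcrl (2.56 CPM per kb) in all 10 libraries. Angpt2 was lowest (0.525 CPM per kb) and did not overlap Flt4 above it (1.87), whereas Flt4 and Sox17 (1.91) were in this order in only 5 of 10 libraries. The upper end of the order therefore holds the 2 VEGF ligand genes and the lower end the endothelial ligand gene Angpt2.

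**Figure D1:**
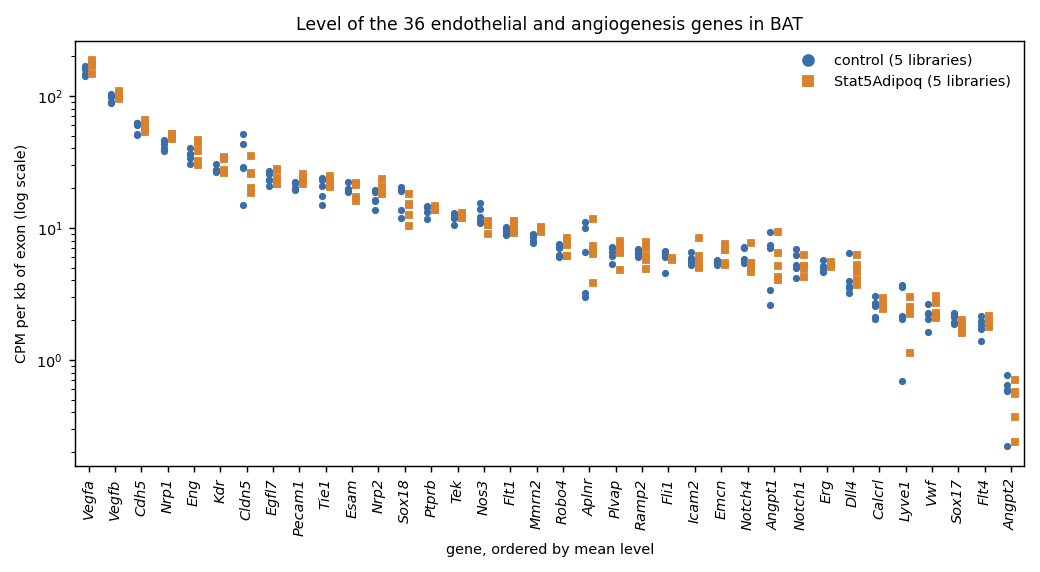
Level of each of the 36 genes in CPM per kb of exon on a log axis, with 1 point per library (blue circles, 5 control libraries; orange squares, 5 Stat5Adipoq libraries) and genes ordered by their mean. Vegfa and Vegfb stand above all others and Angpt2 below, while most neighbours in between overlap.

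No gene of the 36 passed the adjusted threshold by edgeR, against 368 of all 13568 tested genes (2.71%). By DESeq2 1 gene, the VEGF co-receptor gene Nrp1, was higher in Stat5Adipoq BAT, against 660 of the 13222 genes to which DESeq2 gave an adjusted p-value (4.99%), and by limma-voom none passed. At an unadjusted edgeR p-value under 0.05 there were 7 of 36 genes (19.4%), against 15.2% of all tested genes: Pecam1, Emcn, Mmrn2, Nrp1 and Nrp2 with higher means and Sox17 and Nos3 with lower means in Stat5Adipoq BAT. The values of the genotypes did not overlap for Nrp1 and Mmrn2, 2 of 36 genes, against 4.39% of all tested genes. The log2 fold changes of Stat5Adipoq over control lay between -0.42 (Cldn5) and 0.24 (Nrp2) with a median of 0.07, and 24 of the 36 were above 0 (66.7%), against 49.2% of all tested genes. These genes share cells and libraries, so they are not independent of each other.

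The precision of these estimates is given by their confidence limits. For 35 of the 36 genes the 95% confidence limits of the fold change lay within 2-fold in either direction (97.2%, against 86.1% of all tested genes). For 29 they lay within 1.5-fold (80.6%, against 69.5% of all tested genes). The exception at 2-fold was Cldn5.

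**Figure D2:**
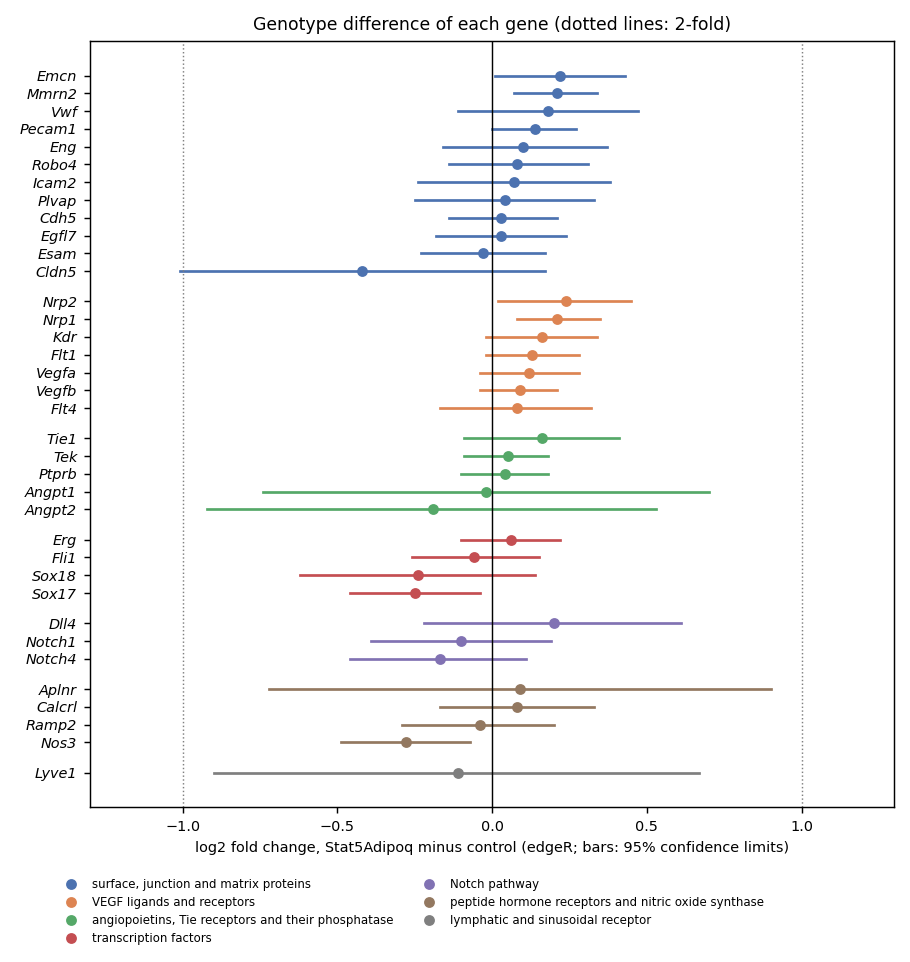
Log2 fold change of each gene, Stat5Adipoq minus control, from edgeR, with 95% confidence limits as bars and genes grouped by role and ordered within each group. The solid line marks no difference and the dotted lines a 2-fold difference, and Cldn5 is the only gene whose limits reach past a dotted line.

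Among the VEGF ligands and receptors, all 7 estimates were above 0, between 0.08 and 0.24 with a median of 0.13. Of all tested genes 49.2% were above 0. None of the 7 passed the adjusted threshold by edgeR, and 2 had an unadjusted p-value under 0.05 (28.6%, against 15.2%). These 7 genes share cells and libraries, so their estimates are not independent. Without control 1 the estimate of Flt4 was -0.00. Nrp1, which encodes the co-receptor neuropilin-1 and lies at chr8:128358591-128505476 (Entrez 18186, GRCm38), read 446, 424, 377, 452 and 396 CPM in controls 1 to 5 and 500.3, 458, 501, 499 and 471 CPM in Stat5Adipoq mice 1 to 5. Every Stat5Adipoq library was above every control library. The log2 fold change was 0.21 ± 0.06 (SE, 95% confidence limits 0.08 and 0.35), with an adjusted p of 0.098 by edgeR and 0.022 by DESeq2. Exact two-sided permutation of the libraries gave p = 0.0079 for log2 CPM, which is the smallest p-value that 5 against 5 libraries allow. Full separation of the genotypes fixes this value, so it repeats the lack of overlap and is no further test. With the skeletal muscle score as a covariate the estimate was 0.16 (adjusted p = 0.34 by edgeR), and without control 3 it was 0.18 (adjusted p = 0.13 by edgeR).

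Nrp2, the co-receptor gene that pairs with FLT4 and also binds semaphorins, read 219.7, 188, 163, 191 and 229 CPM in controls and 242, 276, 213, 213 and 224 CPM in Stat5Adipoq BAT. Its genotypes overlapped, and the log2 fold change of 0.24 ± 0.10 (SE) had an adjusted p of 0.28 by edgeR. The receptor gene Kdr, which encodes VEGFR2 and lies at chr5:75932827-75979072 (Entrez 16542), read 247, 246, 239, 248 and 277 CPM in controls and 237, 249, 301, 306 and 312 CPM in Stat5Adipoq BAT. Stat5Adipoq libraries 3, 4 and 5 were above all controls, whereas Stat5Adipoq 1 was the lowest of the 10 libraries. The log2 fold change was 0.16 (95% confidence limits -0.02 and 0.34) with an adjusted p of 0.39 by edgeR.

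Flt1 encodes VEGFR1, which also binds VEGF-B and can act as a decoy for VEGF-A. It read 121, 120.3, 130.2, 137 and 128 CPM in controls and 124, 131, 136, 152 and 153 CPM in Stat5Adipoq BAT, and its 2 highest libraries were Stat5Adipoq 4 and 5 (log2 fold change 0.13 ± 0.07 SE, adjusted p = 0.42 by edgeR). Flt4, the receptor gene of lymphatic and sprouting endothelium, was at 14.9 ± 2.37 CPM in controls and 15.8 ± 1.24 CPM in Stat5Adipoq BAT (SD, n = 5 each).

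Neither ligand gene passed the threshold by edgeR or DESeq2 or had an unadjusted p-value under 0.05. Vegfa, at chr17:46016993-46032377 (Entrez 22339), read 689, 633, 704, 718 and 601 CPM in controls and 626, 739, 726, 800.5 and 748 CPM in Stat5Adipoq BAT. Stat5Adipoq 1 lay within the controls and the other 4 Stat5Adipoq libraries above them, which gave a fold change of 1.09 (95% confidence limits 0.97 and 1.21) and an adjusted p of 0.48 by edgeR. Vegfb read 166, 159, 144, 143 and 157 CPM in controls and 153, 174, 163, 166 and 162 CPM in Stat5Adipoq BAT, with overlapping genotypes. Its spread within genotypes was the smallest of all 36 genes, with a coefficient of variation of 5.68% around the genotype means.

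Core promoters are shown for Vegfa, the most abundant of the 36 genes, and for Nrp2, the one with the highest estimate. The sequences are the 250 bases just before the first base of each gene in RefSeq (GRCm38.p6), 5′ to 3′ on the strand of the gene. The letters searched on both strands were TTCNNNGAA for STAT factors, ACAAT for SOX factors and CCGGAA for ETS factors, and matches would be in capitals.
Vegfa (chr17:46032378-46032627, minus strand): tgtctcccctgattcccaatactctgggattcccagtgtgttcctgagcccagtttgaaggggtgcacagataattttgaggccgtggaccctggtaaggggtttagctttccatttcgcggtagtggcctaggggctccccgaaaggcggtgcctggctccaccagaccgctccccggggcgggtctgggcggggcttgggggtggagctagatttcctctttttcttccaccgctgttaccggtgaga
Nrp2 (chr1:62703067-62703316, plus strand): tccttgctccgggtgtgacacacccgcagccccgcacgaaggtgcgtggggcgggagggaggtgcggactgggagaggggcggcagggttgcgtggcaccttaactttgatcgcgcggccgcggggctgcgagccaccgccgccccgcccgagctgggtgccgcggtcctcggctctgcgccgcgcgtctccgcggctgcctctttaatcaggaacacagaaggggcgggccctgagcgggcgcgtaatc
Neither window held any of them. The table of promoters held 24 windows, each before the start of a RefSeq transcript, for 19 of the 36 genes, and the other genes were not searched. Some of these starts, those of Nrp1 and Kdr among them, lie inside the gene intervals given above. TTCNNNGAA occurred in 0 of the 24, against 7.02% of 32851 promoters of all genes. ACAAT occurred in 6 (25%, against 27.7%), those of Calcrl, Emcn, Erg, Notch4, Robo4 and Tek, and CCGGAA in 1 of the 24 (4.17%, against 12%), that of Kdr on the opposite strand from position -153, counted from the start site. These shares describe letters in a short window and say nothing about binding, and more distant sequence was not analysed here.

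The surface, junction and matrix proteins of endothelium form the largest group, with 12 genes. Their median log2 fold change was 0.08, and none passed the adjusted threshold by edgeR or DESeq2. Of the 12 estimates 10 were above 0 (83.3%, against 49.2% of all tested genes). By edgeR 3 had an unadjusted p-value under 0.05 (25%, against 15.2% of all tested genes). Mmrn2, which encodes multimerin-2 of the endothelial matrix and lies at chr14:34375504-34404287 (Entrez 105450), read 34.2, 35.3, 30.3, 35.9 and 31.4 CPM in controls and 39.6, 36.9, 39.0, 40.1 and 37.9 CPM in Stat5Adipoq BAT. As for Nrp1, the genotypes did not overlap, and Mmrn2 varied little within each of them (SD 2.44 and 1.31 CPM). Its log2 fold change was 0.21 ± 0.06 (SE), or 1.15-fold with 95% confidence limits of 1.05 and 1.27. The adjusted p was 0.11 by edgeR and 0.12 by DESeq2. With the skeletal muscle score as a covariate the estimate was 0.15 (adjusted p = 0.38 by edgeR). Without control 3, the lowest library, it was 0.17 (adjusted p = 0.16 by edgeR).

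Pecam1, at chr11:106654213-106715281, encodes the adhesion molecule CD31 that is widely used to mark vessels, and it read 125, 137, 121, 139 and 137 CPM in controls and 133, 143, 143, 148 and 159 CPM in Stat5Adipoq BAT. All Stat5Adipoq libraries but the first were above all controls, and the difference was 1.1-fold (adjusted p = 0.31 by edgeR). Cdh5 read 260.9, 254.5, 216.2, 213.1 and 262.5 CPM in controls and 223.4, 239.7, 243.6, 251.6 and 277.7 CPM in Stat5Adipoq BAT. Its genotypes overlapped widely, and the fold change of 1.02 had 95% confidence limits of 0.91 and 1.15. The sialomucin gene Emcn was even in controls (29.6 ± 1.03 CPM, SD, n = 5) and more spread in Stat5Adipoq BAT (34.4 ± 5.33 CPM, SD, n = 5), where libraries 3, 4 and 5 at 40.8, 36.8 and 36.7 CPM were above all controls and libraries 1 and 2 at 28.5 and 29.2 CPM were not (adjusted p = 0.31 by edgeR).

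Cldn5, the tight junction protein gene, was the most uneven of the group. It read 61.4, 41.0, 21.2, 40.5 and 72.3 CPM in controls and 26.2, 37.0, 36, 49.9 and 28.5 CPM in Stat5Adipoq BAT. The lowest and the 2 highest values were all controls, and the log2 fold change of -0.42 ± 0.27 (SE) had an adjusted p of 0.52 by edgeR. The other members of the group had log2 fold changes between -0.03 (the junction gene Esam) and 0.18 (Vwf, von Willebrand factor), with adjusted p-values of 0.59 or more by edgeR: the TGF-β family co-receptor gene Eng, the guidance receptor gene Robo4, the adhesion molecule gene Icam2, the fenestral diaphragm gene Plvap and the secreted factor gene Egfl7 lay between them. Of the exon sequence of Egfl7, 9.4% overlaps another gene on the same strand, so part of its counts is uncertain.

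**Figure D3:**
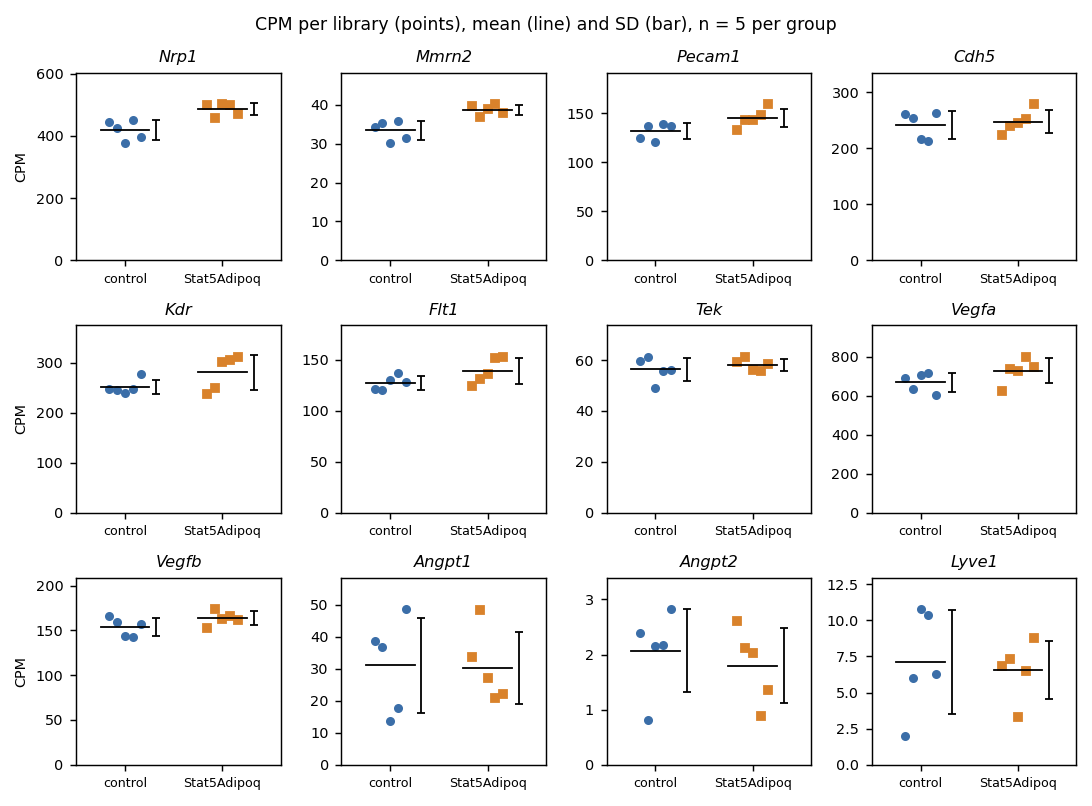
CPM of 12 genes in each library (blue circles, control; orange squares, Stat5Adipoq), with the mean of each genotype as a line and the SD as a bar beside it (n = 5 each), on axes that start at 0. Nrp1 and Mmrn2 separate the genotypes without overlap, the other 10 overlap, and Angpt1, Angpt2 and Lyve1 spread most widely.

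The angiopoietin group comprised both ligands, both Tie receptors and the phosphatase gene Ptprb, and none of its 5 genes had an unadjusted p-value under 0.05 or passed the adjusted threshold by edgeR or DESeq2. Tek, the gene of the receptor TIE2, read 59.5, 61.2, 49.2, 55.7 and 56.2 CPM in controls and 59.4, 61.4, 56.0, 55.7 and 58.6 CPM in Stat5Adipoq BAT. The genotypes overlapped, with control 3 the lowest library, and the log2 fold change was 0.05 (95% confidence limits -0.09 and 0.18). Tie1, an orphan receptor that modulates TIE2, was at 98.5 ± 18.3 and 110.2 ± 8.44 CPM, and Ptprb, which dephosphorylates TIE2, at 182 ± 16.3 and 187 ± 5.66 CPM (control and Stat5Adipoq, SD, n = 5 each).

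Angpt1, the activating ligand of TIE2, varied much more than its receptor. It read 38.5, 36.8, 13.6, 17.6 and 48.7 CPM in controls and 33.5, 48.4, 27.0, 20.9 and 22.0 CPM in Stat5Adipoq BAT, a 3.58-fold range over the 10 libraries in which both genotypes held high and low samples. The log2 fold change of -0.02 had confidence limits of -0.74 and 0.70, and its sign changed with the test and with single libraries left out. Angpt2, which often opposes Angpt1 and is made by activated endothelium, read 2.39, 0.817, 2.16, 2.17 and 2.83 CPM in controls and 2.60, 2.12, 2.03, 0.881 and 1.36 CPM in Stat5Adipoq BAT. With 8 to 43 counts per library its counting error alone is 20.5% of the mean, and its limits of -0.92 and 0.53 on the log2 scale are wide.

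Of the transcription factor genes, the 2 SOX genes had lower and the 2 ETS genes near equal means in Stat5Adipoq BAT. None of the 4 passed the adjusted threshold by edgeR or DESeq2. By edgeR 1 had an unadjusted p-value under 0.05 (25%, against 15.2% of all tested genes). Sox17, a factor of arterial endothelium, read 9.0, 10.8, 10.1, 9.25 and 10.4 CPM in controls and 7.88, 7.57, 8.68, 7.93 and 9.59 CPM in Stat5Adipoq BAT. All Stat5Adipoq libraries but the fifth were below all controls, and the log2 fold change was -0.25 ± 0.10 (SE, adjusted p = 0.24 by edgeR). Of the exon sequence of Sox17, 16.8% overlaps a gene on the opposite strand, and since the use of strand in counting is not stated its counts are uncertain, as are those of Angpt1 (14.2%), Notch1 (9.8%) and Dll4 (5.6%). Sox18, which acts in vascular and lymphatic development, was at 27.3 ± 6.30 and 23.0 ± 4.80 CPM (log2 fold change -0.24, adjusted p = 0.58 by edgeR). The ETS factor genes Erg and Fli1 were at 17.5 ± 1.46 and 18.2 ± 0.632 CPM and at 21.0 ± 2.90 and 20.2 ± 0.371 CPM (control and Stat5Adipoq, SD, n = 5 each), and the values of both spread less in Stat5Adipoq BAT, a difference in spread that was not tested.

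Among the Notch genes, the receptor genes Notch1 and Notch4 had log2 fold changes of -0.10 and -0.17 and the tip cell ligand gene Dll4 of 0.20, with none of the 3 passing the adjusted threshold by edgeR or DESeq2 or reaching an unadjusted p-value under 0.05. Dll4 was at 24.7 CPM in control 5 and 12.4 to 15.2 CPM in the other controls, and at 14.3 to 24.0 CPM in Stat5Adipoq BAT. Notch4 was at 61.5 CPM in Stat5Adipoq 4 and 37.1 to 43.4 CPM in the other Stat5Adipoq libraries, and at 43.7 to 57.6 CPM in controls. Single libraries thus stood out in both genes, and each was in a different genotype.

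In the group of peptide hormone receptors and nitric oxide synthase, none of the 4 genes passed the adjusted threshold by edgeR or DESeq2. By edgeR 1 had an unadjusted p-value under 0.05 (25%, against 15.2% of all tested genes). Nos3, which encodes the endothelial nitric oxide synthase that relaxes vessels and lies at chr5:24364816-24384474, read 57.0, 63.4, 46.5, 45.4 and 49.7 CPM in controls and 46.4, 43.3, 37.2, 43.5 and 45.2 CPM in Stat5Adipoq BAT. The 3 highest values were controls and the 4 lowest were Stat5Adipoq libraries, with a log2 fold change of -0.28 ± 0.10 (SE), or 0.82-fold, and an adjusted p of 0.17 by edgeR and 0.11 by DESeq2. Since 32.3% of the exon sequence of Nos3 overlaps a gene on the opposite strand, its counts may include reads of that gene. Calcrl and Ramp2, the 2 subunits of an adrenomedullin receptor, were at 12.2 ± 2.05 and 12.8 ± 0.895 CPM and at 21.5 ± 1.08 and 20.8 ± 3.71 CPM (control and Stat5Adipoq, SD, n = 5 each). Ramp2 is uncertain, as 73.8% of its 50-base words occur in transcripts of other genes. The apelin receptor gene Aplnr had the widest spread within genotypes of all 36 genes, from 11.1 to 41.2 CPM in controls and from 14.1 to 42.9 CPM in Stat5Adipoq BAT (coefficient of variation 48.1%).

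Lyve1, a hyaluronan receptor of lymphatic and sinusoidal endothelium that some macrophages also express, read 2.01, 5.99, 10.8, 10.4 and 6.30 CPM in controls and 6.87, 7.31, 3.32, 6.5 and 8.79 CPM in Stat5Adipoq BAT. The highest and the lowest library were both controls (log2 fold change -0.11, 95% confidence limits -0.90 and 0.67). Of the other lymphatic markers, Ccl21a was at 0 counts in all libraries and Prox1 at 7 counts or fewer. Reln was at 5.65 ± 3.66 and 3.66 ± 2.66 CPM and Mmrn1 at 3.12 ± 1.91 and 3.79 ± 2.04 CPM (control and Stat5Adipoq, SD, n = 5 each). Pdpn, which is also found outside lymphatics, was at 1.05 to 2.27 CPM in controls and 0.641 to 1.09 CPM in Stat5Adipoq BAT, with a log2 fold change of -0.88 (95% confidence limits -1.50 and -0.26) and an adjusted p of 0.14 by edgeR. The lymphatic list of 7 genes summed to 16.7 to 44.7 CPM in controls and 24.8 to 42.0 CPM in Stat5Adipoq BAT.

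Variation between libraries was not shared evenly by the 36 genes. The coefficient of variation was taken within genotypes, with each library set relative to the mean of its genotype. It had a median of 12.4%, from 5.68% for Vegfb, 5.70% for Mmrn2 and 6.17% for Nrp1 to 42.0% for Lyve1, 42.8% for Angpt1 and 48.1% for Aplnr. Differences between the genotypes, such as those of Nrp1 and Mmrn2, are left out of this measure. For the 34 genes with at least 100 counts on average the median was 12.1%, against 9.32% for the 8822 tested genes at that depth. For Aplnr and Angpt1 the spread expected from counting alone was 5.72% and 5.19%, so counting accounts for little of it. Control 3 held the lowest value for 12 of the 36 genes, with a median deviation of -0.08 on the log2 scale, while control 5 and Stat5Adipoq 5 each held the highest value for 8 genes. The sum of 10 endothelial genes (Pecam1, Cdh5, Kdr, Tek, Tie1, Erg, Emcn, Esam, Cldn5 and Robo4) was 859.9 to 1070.4 CPM in controls and 908 to 1111 CPM in Stat5Adipoq BAT, with overlapping ranges and the lowest value in control 3.

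**Figure D4:**
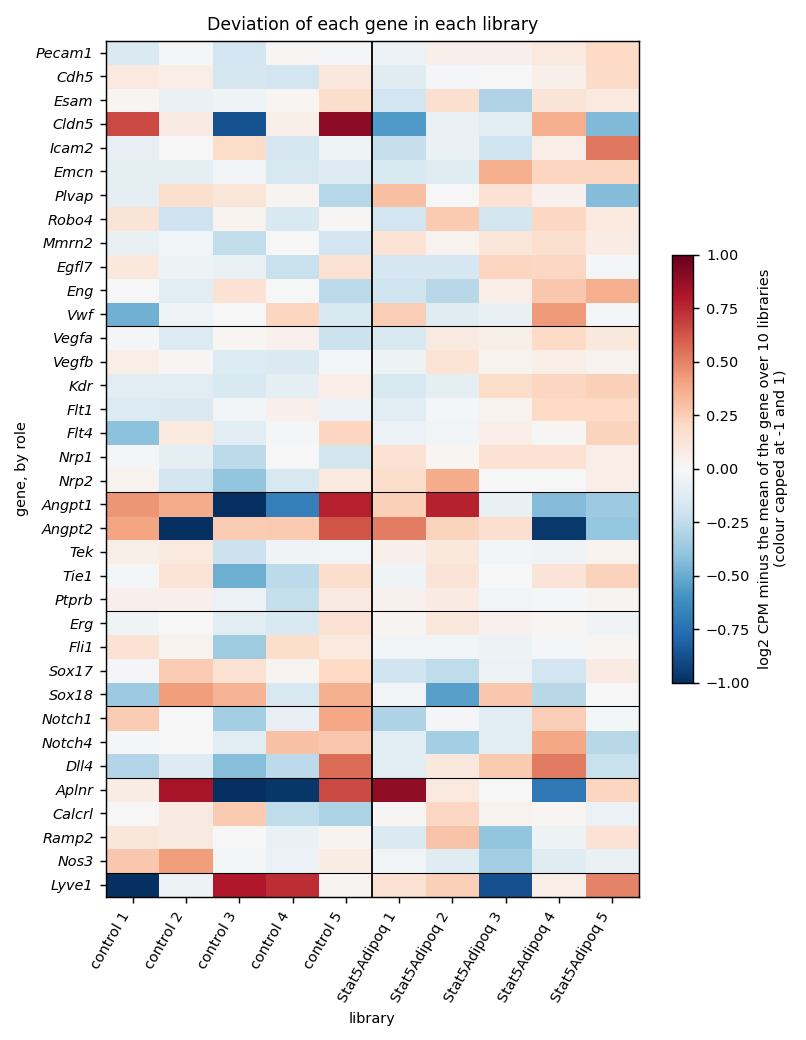
Deviation of each gene in each library from the mean of that gene over the 10 libraries, in log2 CPM (red, above the mean; blue, below; colour capped at -1 and 1), with genes grouped by role and the genotypes separated by a vertical line. Aplnr, Angpt1, Angpt2, Lyve1 and Cldn5 hold the strongest colours, and these fall in libraries of both genotypes.

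Over the 10 libraries, genes were set beside each other in 11 pairs chosen after the values were seen. Each pair held a ligand gene and a gene of its receptor or co-receptor, except Calcrl and Ramp2, which encode subunits of an adrenomedullin receptor. Vegfa and Flt1 had a Pearson r of 0.77 (permutation p = 0.0098, adjusted p = 0.0539 over the 11 pairs) and a Spearman rho of 0.83 (permutation p = 0.00442, adjusted 0.0486). For this pair r was 0.86 without the 2 libraries farthest from the median of Vegfa and 0.69 after the genotype means were removed. Angpt1 and Tek had an r of 0.75 (permutation p = 0.00796, adjusted 0.0539) and a rho of 0.78 (permutation p = 0.0104, adjusted 0.0572), and r was 0.77 after the genotype means were removed, but it was 0.46 without the 2 libraries farthest from the median of Angpt1 and 0.58 without control 3, so the relation rests in part on those libraries. The other 9 pairs had r between -0.19 (Angpt2 and Tek) and 0.60 (Dll4 and Notch1), with 0.49 for Vegfa and Kdr, 0.44 for Vegfa and Nrp1 and 0.11 for Vegfb and Flt1. No pair passed 0.05 after adjustment by Pearson's r, and both genes of a pair share the depth, the scaling and the tissue composition of each library.

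Further genes of vessels and their regulation were examined in 4 lists. Of 35 other endothelial genes 1 was higher in Stat5Adipoq BAT by edgeR and 3 had an unadjusted p-value under 0.05. Of 25 other angiogenic ligands, partners and inhibitors 1 was higher and 3 had an unadjusted p-value under 0.05, and of 10 Notch ligands and targets none passed by edgeR or DESeq2 and 2 had an unadjusted p-value under 0.05. Of 14 genes of the hypoxia response and of Vegfa regulation 1 was higher and 1 lower, and 2 had an unadjusted p-value under 0.05. The share of called genes among all tested genes was 2.71%, as above. Unadjusted edgeR p-values under 0.05 made up 8.57%, 12%, 20% and 14.3% of the 4 lists, against 15.2% of all tested genes. The median log2 fold changes of the 4 lists were 0.07, 0.05, 0.07 and 0.02.

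Epas1 encodes HIF-2α, an oxygen-sensitive transcription factor that is abundant in endothelium and brown adipocytes and can act on Vegfa. It read 924, 935, 924, 874 and 964 CPM in controls and 1164, 1210.2, 1184, 1329 and 1296 CPM in Stat5Adipoq BAT. The genotypes were far apart, and Epas1 rose by 0.42 ± 0.05 (SE) on the log2 scale, or 1.34-fold (95% confidence limits 1.23 and 1.45, adjusted p = 0.0020 by edgeR). Bnip3, a mitophagy receptor gene induced by hypoxia, fell from 65.5 to 81.6 CPM in controls to 44.0 to 54.4 CPM in Stat5Adipoq BAT (0.69-fold, adjusted p = 0.0024 by edgeR). Hif1a, the related factor gene, did not pass, with 89.1 ± 10.1 and 89.1 ± 4.78 CPM (SD, n = 5 each), and neither did Vegfa, as given above.

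Fgf1, a growth factor for endothelial cells and adipocytes, read 24.1, 27.0, 37.5, 36.8 and 42.5 CPM in controls and 65.0, 84.3, 72.9, 72.4 and 65.6 CPM in Stat5Adipoq BAT. It rose 2.15-fold (95% confidence limits 1.74 and 2.65, adjusted p = 0.0020 by edgeR) without overlap of the genotypes. Epas1, Bnip3 and Fgf1 passed the threshold under all 18 alternatives. Which cells of the tissue held these transcripts was not measured.

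Sele, the E-selectin gene of activated endothelium that lets leukocytes roll, read 0.670, 0.454, 0.481, 0.960 and 0.914 CPM in controls and 1.26, 2.44, 3.42, 1.98 and 1.84 CPM in Stat5Adipoq BAT. The genotypes did not overlap, but the gene had only 17.6 counts per library on average. Its log2 fold change was 1.59 ± 0.32 (SE), or 3.01-fold (95% confidence limits 1.87 and 4.85), with an adjusted p of 0.021 by edgeR. The call was lost in 5 of 18 alternatives, with adjusted p-values of 0.066 with the replicate block, 0.087 with the muscle covariate, 0.051 without control 1, 0.055 without control 2 and 0.055 without Stat5Adipoq 3. The related gene Selp, P-selectin, was at 1.41 ± 0.935 and 0.922 ± 0.377 CPM (log2 fold change -0.70, adjusted p = 0.48 by edgeR). Vcam1 and Icam1, also genes of endothelial activation, did not pass, as Vcam1 was at 7.01 ± 1.04 and 7.05 ± 0.956 CPM and Icam1 at 5.87 ± 1.44 and 5.91 ± 0.965 CPM (control and Stat5Adipoq, SD, n = 5 each). Windows of 250 bases before a RefSeq transcript start (GRCm38.p6) are shown for Sele and Bnip3. No window was available for Epas1, and that of Fgf1 was not examined, so the called genes are covered only in part. That of Sele, which lies inside the RefSeq interval of the gene, holds TTCNNNGAA once, from position -140 and in capitals, as do 7.02% of all promoters, and that of Bnip3 holds none of the letters searched.
Sele (chr1:164047984-164048233, plus strand): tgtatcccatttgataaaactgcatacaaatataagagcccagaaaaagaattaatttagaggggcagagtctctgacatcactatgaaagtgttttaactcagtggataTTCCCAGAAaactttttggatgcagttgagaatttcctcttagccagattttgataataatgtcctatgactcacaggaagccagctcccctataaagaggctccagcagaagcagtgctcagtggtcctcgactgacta
Bnip3 (chr7:138909507-138909756, minus strand): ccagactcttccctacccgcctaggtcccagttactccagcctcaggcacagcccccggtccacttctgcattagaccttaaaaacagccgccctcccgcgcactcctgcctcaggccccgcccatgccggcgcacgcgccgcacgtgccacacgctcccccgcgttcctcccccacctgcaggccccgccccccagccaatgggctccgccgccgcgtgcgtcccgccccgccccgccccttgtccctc

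**Figure D5:**
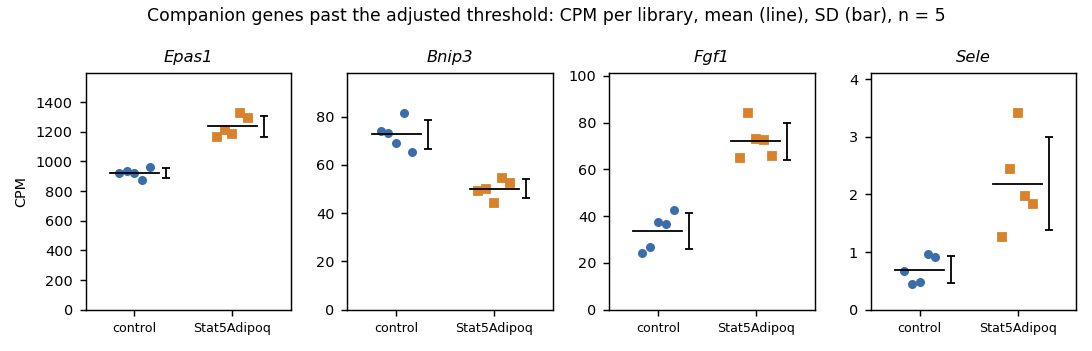
CPM of Epas1, Bnip3, Fgf1 and Sele in each library (blue circles, control; orange squares, Stat5Adipoq), with the mean as a line and the SD as a bar (n = 5 each), on axes that start at 0. The genotypes do not overlap in any of the 4 genes, with Bnip3 lower and the others higher in Stat5Adipoq BAT.

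Markers of the cells that surround or accompany endothelium were measured in the same libraries. The 11 markers of pericytes and smooth muscle, which wrap the vessels, summed to 955 to 1033 CPM in controls and 954 to 1112 CPM in Stat5Adipoq BAT, and none passed by edgeR or DESeq2 or had an unadjusted p-value under 0.05. Sums of the lists for adipocytes (20597 to 30918 against 22060.3 to 27677 CPM), fibroblasts (2157 to 3581 against 2092 to 3619 CPM), macrophages (174 to 230.2 against 146 to 191 CPM), platelets (7.56 to 9.50 against 6.67 to 10.6 CPM) and T and B cells (3.37 to 6.13 against 3.43 to 4.81 CPM) also overlapped between the genotypes. All 9 skeletal muscle markers had lower means in Stat5Adipoq BAT, with sums of 5.91 to 4665 CPM against 2.56 to 53.1 CPM, and the 6 Schwann cell markers summed to 134 to 491 CPM against 121 to 219 CPM. EdgeR called none of these markers, 9 muscle and 5 Schwann cell markers had an unadjusted p-value under 0.05, and DESeq2 called the muscle genes Acta1, Ckm, Tnni2 and Myh1 and the Schwann cell gene Pmp22 lower (log2 fold changes by DESeq2 -5.7, -5.75, -5.38, -5.65 and -0.62), against 4.99% of all genes it tested. DESeq2 gave no adjusted p-value for the other 5 muscle markers. The 11 liver genes summed to 802 to 1215 CPM against 779 to 1081 CPM, but Hp made up most of these sums (704 to 1026 CPM against 749 to 997 CPM). Of the 9 liver genes tested 8 had lower means in Stat5Adipoq BAT, with a median log2 fold change of -2.90 over the 9. For Alb, Apoa1, Ttr, Serpina1b, Ahsg, Fgb and Fga, control 3 alone held the high values. Ahsg, for example, was at 11.5 CPM in control 3 and at 0 in the other controls. Medians were higher in Stat5Adipoq BAT for Alb, Ttr, Serpina1b, Ahsg and Fgb, lower for Apoa1 and 0 in both genotypes for Fga. Of the 9 genes 3 had an unadjusted p-value under 0.05 by edgeR (33.3%, against 15.2% of all tested genes). Only 1, Cyp2e1, passed the adjusted threshold and was lower in Stat5Adipoq BAT (adjusted p = 0.037 by edgeR, lost in 9 of 18 alternatives with adjusted p-values up to 0.11). Unlike Alb, Cyp2e1 was not high in control 3 alone, with 102, 96.5, 180.1, 188 and 58.7 CPM in controls 1 to 5. In control 4 Alb was at 0.152 CPM. Whether Cyp2e1 RNA came from liver or from the fat itself was not tested. In a fit with the muscle score none of the 36 endothelial genes passed the adjusted threshold by edgeR and 3 had an unadjusted p-value under 0.05. Without control 3 these numbers were 0 and 7. Of all tested genes 211 passed the adjusted threshold with the muscle score and 443 without control 3, against 368 in the main fit. The share of all tested genes with an unadjusted p-value under 0.05 was not taken in these fits. The part of Schwann cell or liver RNA in the values given here was not tested.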

How the data were processed

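The values used are counts of reads per gene, which the authors deposited for each of the 10 samples without normalization. Per the labels and methods, reads of 50 bases from stranded libraries were aligned to GRCm38 with STAR 2.5.0b and counted over exons with featureCounts 1.5.0-p1, and the use of strand in counting was not given in the sources used here. The methods name an Ensgene annotation, whereas the deposited counts are listed by Entrez identifier. From the authors' table of the comparison, other values than identifiers and symbols (fold changes, p-values and mean normalized counts, made by the authors with DESeq2 1.16.1) were not used. Subsets of that table were not used either.

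Genes were kept where the sum of size factor normalized counts was above 45, as in the methods. Genotypes were compared by edgeR 4.0.16 (quasi-likelihood F test, TMM, no covariate, R 4.3.3). DESeq2 1.42.0 and limma 3.58.1 (voom) were alternatives, beside other scalings and filters, a replicate block, a muscle score as covariate and leaving out each library. Log2 CPM used a prior count of 1. Exon lengths (known for 96.5% of tested genes) and overlaps come from GENCODE and gene positions from RefSeq for GRCm38. Correlations used 100000 permutations. No 2 libraries differed by as little as sampling noise (chi-square per degree of freedom at least 5.31 over 45 pairs). The labels do not say that the replicates are separate mice, and p-values measure the spread between these libraries.

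The 36 genes and the other lists were chosen with earlier results of these data known. Every one of the 36 is accounted for, and values in each library are given for genes called by edgeR or DESeq2, genes without overlap of the genotypes, and Pecam1, Cdh5, Kdr, Flt1, Tek, Vegfa, Vegfb, Angpt1, Angpt2 and Lyve1. Genes of other lists are named where edgeR or DESeq2 called them, up to 10 per list. Further genes, such as Nrp2, Cldn5, Nos3, Sox17, Hif1a, Pdpn, Reln, Mmrn1, Selp, Vcam1, Icam1 and Hp, and the per-library values given for them were chosen after their values were seen.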

Additional observations from a re-analysis of the deposited data

Results flagged for a closer look

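In groups of 5 libraries, a single library was set apart when its gap to the nearest other library was more than 0.71 of the range of the group. This held in 8 of 96 groups examined, and chance gives about 1 in 20, or 4.8. Among the endothelial genes, Kdr was at 277 CPM in control 5 against 239 to 248 CPM in the other controls, Dll4 at 24.7 CPM in control 5 against 12.4 to 15.2 CPM, and Notch4 at 61.5 CPM in Stat5Adipoq 4 against 37.1 to 43.4 CPM in the other Stat5Adipoq libraries. Among the muscle markers, control 3 was set apart for Acta1 at 785 CPM (0.708 to 70.5 CPM in the other controls), Ckm at 305 CPM (0.404 to 26.3 CPM) and Tnni2 at 147 CPM (0.253 to 14.0 CPM). Stat5Adipoq 1 was set apart for Cyp2e1 at 82.0 CPM (23.7 to 32.3 CPM in the other Stat5Adipoq libraries) and for Stat5a at 20.7 CPM (15.8 to 16.6 CPM).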

How the results depend on the processing

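The counts of calls, the median over the 36 genes and the fold changes of 48 genes, these 36 included, were recomputed under 18 alternatives (17 for Myh1 and Tnni2), and levels, spreads, marker sums, correlations and promoter shares were not. The number of the 36 genes called stayed at 0 except with DESeq2, which called 1 (Nrp1), and the median of their log2 fold changes lay between 0.03 and 0.08. Over all tested genes the 368 calls became 660 with DESeq2, 211 with the muscle score as a covariate and 185 to 443 when single libraries were left out. Fewer by over 1.5 times were left without control 1 (224), control 2 (213), control 4 (221) or Stat5Adipoq 3 (185), 4 (193) or 5 (191). The correlations of the deviations of samples with the same replicate number were -0.231, 0.096, -0.11, 0.0387 and -0.113. Such correlations cannot show whether the numbers pair the samples. With the replicate block 0 of the 36 genes and 273 of all tested genes were called.

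Of 862 values of single genes under alternatives, 812 kept their sign and their side of the threshold, 14 lost a call, 6 gained one and 30 changed sign. The sign of Angpt1 changed with limma-voom (0.11) and with the replicate block (0.03), and that of Tek with the muscle score as a covariate (-0.01). In the other cases the sign changed when single libraries were left out, over ranges of -0.26 to 0.20 for Angpt1, -0.01 to 0.07 for Cdh5, -0.08 to 0.03 for Esam, -0.08 to 0.13 for Icam2, -0.04 to 0.13 for Plvap, -0.02 to 0.08 for Egfl7, -0.00 to 0.14 for Flt4, -0.01 to 0.07 for Ptprb, -0.16 to 0.34 for Aplnr, -0.13 to 0.04 for Ramp2 and -0.35 to 0.08 for Lyve1. The cause of these changes was not tested. Low counts limit Angpt2 and Sele, whose confidence limits are wide.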
